A study of Gallus gallus with 16 samples.

Results

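The RAB genes encode the largest family of small GTPases that direct membrane traffic. Members were taken from the deposited peak table as every gene whose symbol is RAB followed by a number and an optional letter, leaving out genes for RAB-interacting proteins and effectors, and this gave 52 of the 14100 genes that the table names, spread over 21 chromosomes. Together they carried 373 of the 108520 peaks. A gene is in this table only through a peak annotated to it, so RAB genes and other genes without any peak are not counted. The peaks come from CUT&RUN, in which an antibody guides a nuclease to a histone mark and the released DNA is sequenced. The marks were H3K27ac, an acetylation found at active promoters and enhancers, and H3K4me3, a methylation found at promoters. The tissue was fiber cells of embryonic day 13 White Leghorn chick lenses. The hypoxia group was whole lenses kept for 2 h at 1% oxygen, with 2 H3K27ac libraries and 3 H3K4me3 libraries. The normoxia group was whole lenses labelled as kept for 2 h at 21% oxygen, with the same numbers of libraries, and the extraction text instead speaks of dissection at 0 h or after 2 h of hypoxia. Each library pooled 10 to 15 lenses that had been cultured whole, screened for damage and opacity and then split by hand into epithelium and fiber cells. IgG libraries, 3 per condition, were not analysed here.

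A RAB protein works as a switch. Exchange factors load it with GTP, which fixes it to a membrane and lets it bind effectors such as tethers and motors, and GTPase-activating proteins return it to the GDP form, which is taken off the membrane. A lipid anchor added by the RAB geranylgeranyl transferase holds the protein in place, and each RAB marks its own set of membranes along the secretory and endocytic routes. Lens fiber cells depend on such traffic while they elongate and insert channel and adhesion proteins into a very large plasma membrane, and they later clear their organelles. In humans, loss of RAB18 or of its regulators RAB3GAP1, RAB3GAP2 and TBC1D20 causes Warburg Micro syndrome, which includes congenital cataract.

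The table gives 1 list of peaks per mark and condition, with positions, the annotated gene and the distance to a transcription start, and no value for a single library. The differences between conditions below therefore have no replicate check and no test, width stands in for size, and the read depth behind each list is unknown, so that depth and oxygen cannot be told apart. The material is a bulk tissue, in which more cells with a mark and more of the mark per cell cannot be told apart either. All 16 lens fiber markers in the table, among them the crystallin gene CRYAA and the water channel gene MIP, had an H3K27ac promoter peak. The lens epithelium genes PDGFRA and CDH1 had promoter peaks of both marks in both conditions. None of the 3 blood and endothelium markers and none of the 2 pigment epithelium markers had a promoter peak, while H3K27ac was listed at the promoters of COL1A1 (182 bp) and NEFL (287 bp) in hypoxia alone. Outside the promoter window, the blood marker PTPRC had 15 H3K27ac peaks in hypoxia and 11 in normoxia, and CDH5 had 5 and 2. TYR had 2 in hypoxia alone, and PECAM1 and MLANA had no H3K27ac peak. The part of other cells in the RAB results was not tested.

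H3K27ac was listed at RAB genes far more often in hypoxia than in normoxia, and H3K4me3 was listed about equally often. The H3K27ac lists held 150 RAB peaks in hypoxia and 41 in normoxia, 3.66 times as many, where the whole lists differed 2.95 times. These peaks covered 122.64 kb in hypoxia and 27.351 kb in normoxia, 4.48 times as much (3.34 times over the whole lists). The H3K4me3 lists held 93 RAB peaks over 233.78 kb in hypoxia and 89 over 196.49 kb in normoxia, and the ratios of 1.04 and 1.19 stood beside 1.12 and 1.10 for the whole lists. At least 1 H3K27ac peak was annotated to 44 of the 52 RAB genes in hypoxia (84.6%) and to 23 in normoxia (44.2%). Over all genes of the table the shares were 87.1% in hypoxia and 52.3% in normoxia, so RAB genes were close to the other genes or a little below them. H3K4me3 reached 49 RAB genes in hypoxia (94.2%) and 48 in normoxia (92.3%), against 84.8% and 83.1% of all genes. A RAB gene had a median of 2 H3K27ac peaks in hypoxia and 0 in normoxia and 1 H3K4me3 peak in either condition. Over all genes of the table the medians were 2 and 1 for H3K27ac, and 1 in either condition for H3K4me3. The mean number of H3K27ac peaks was 2.88 in hypoxia and 0.788 in normoxia at RAB genes, against 3.27 and 1.11 over all genes. Among RAB genes, RAB28 had the most in the hypoxia H3K27ac list (9 peaks), followed by RAB2A and RAB30 (8 each). RAB7A had the most in the normoxia list (5). In the H3K4me3 lists the highest numbers were 6 peaks at RAB35 in hypoxia and 5 at RAB11A in normoxia, while RAB4A, RAB6A and RAB11A had 5 each in hypoxia.

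Peaks lying at most 3000 bp from a transcription start were taken as promoter peaks. A promoter counted as present in both lists if each list had such a peak there, or if the peak of one list met some peak of the other by at least 1 bp. An H3K27ac promoter peak was found at 37 of the 52 RAB genes (71.2%, Wilson 95% interval 57.7 to 81.7%), close to the 65.9% of all genes. Of these 37, 19 were in the hypoxia list only (51.4%, 35.9 to 66.6%), where the background over all genes with an H3K27ac promoter peak was 47.0%. A further 16 were in both lists (43.2%, background 46.9%) and 2 were in the normoxia list only (5.41%, background 6.04%). All 3 shares were near the background, so the division of RAB promoters between the conditions is no result about this family. H3K4me3 marked the promoter of 49 RAB genes (94.2%, 84.4 to 98.0%), against 76.9% of all genes of the table, a difference that was not tested. Both shares leave out genes without any peak, which the table does not name. At 46 of the 49 the promoter was in both lists (93.9%, background 91.4%), at 2 in the hypoxia list only (4.08%, background 5.15%) and at 1 in the normoxia list only (2.04%, background 3.49%).

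**Figure D1:**
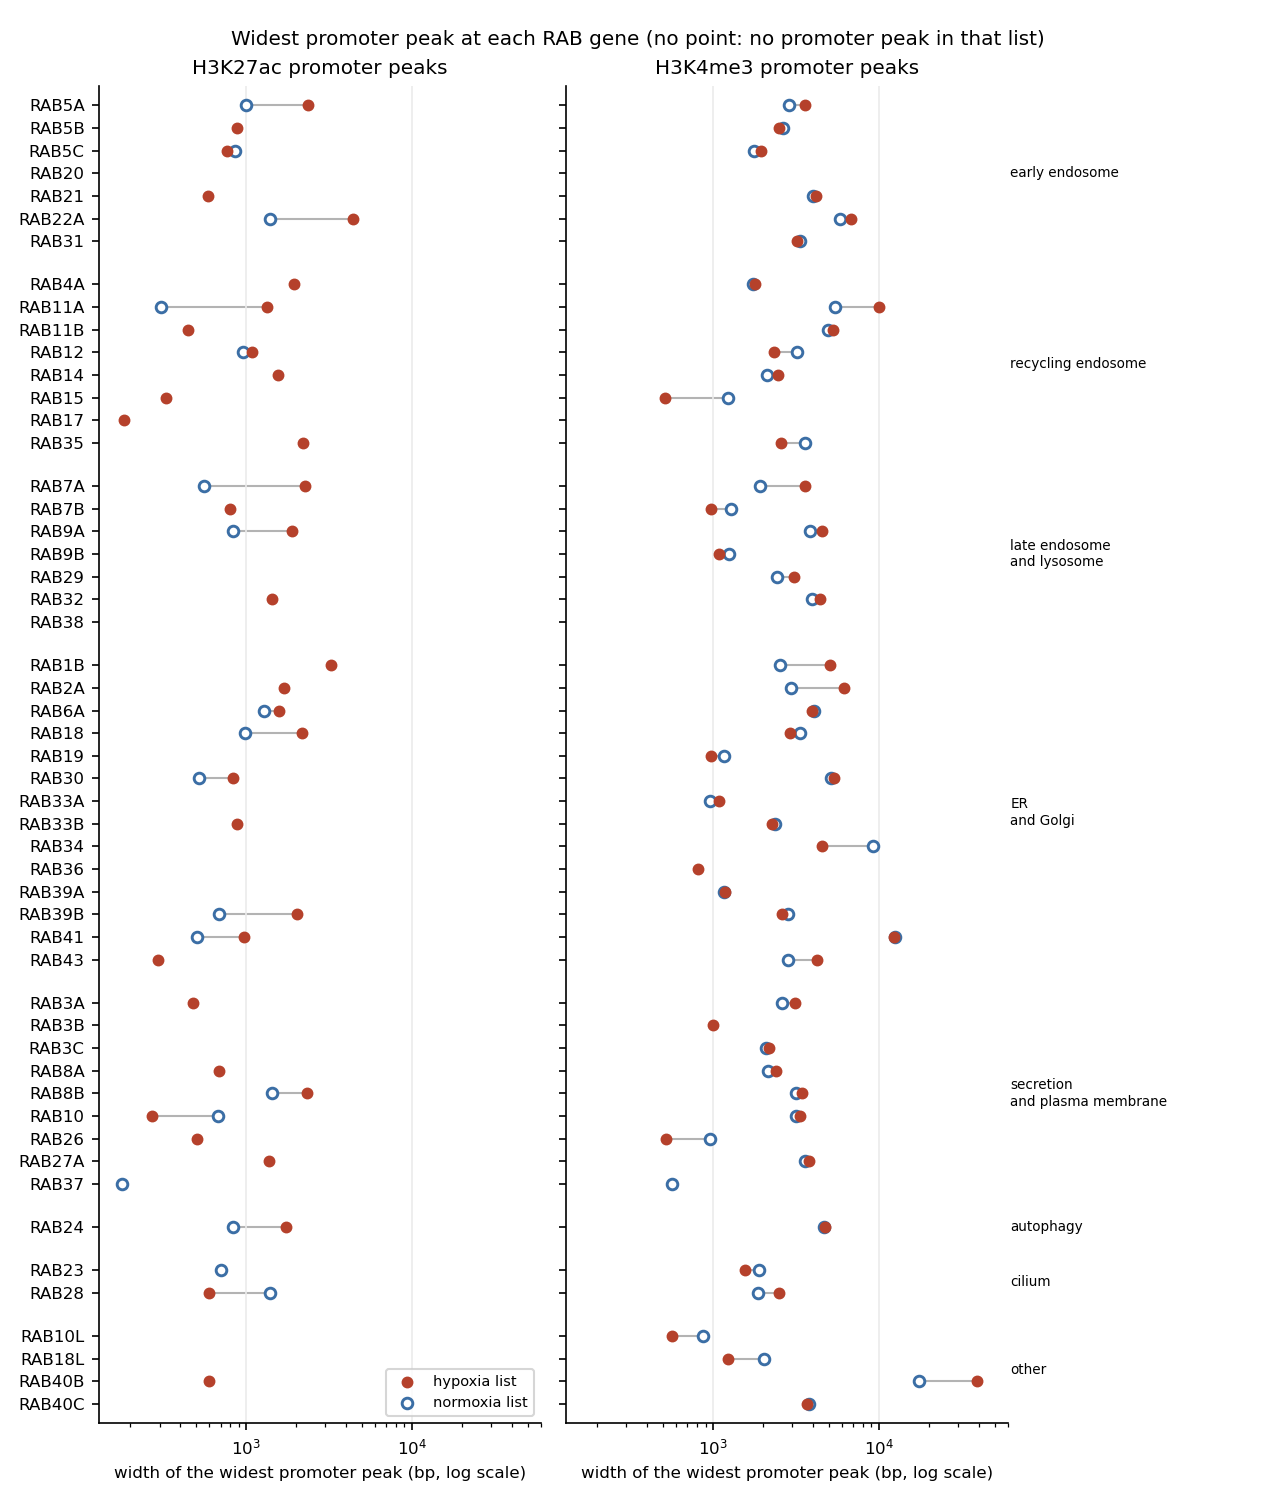
Width in bp (log scale) of the widest promoter peak of each RAB gene for H3K27ac (left) and H3K4me3 (right), by role; filled red points are the hypoxia list, open blue points the normoxia list, a line joins the points of one gene, and a gene without a promoter peak in a list has no point there. H3K27ac has 35 hypoxia and 18 normoxia points, and H3K4me3 has 48 hypoxia and 47 normoxia points, mostly close together.

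Among RAB genes of the early endosome, the RAB5 genes, RAB21 and RAB22A had an H3K27ac promoter peak. RAB5A, which drives fusion of early endosomes, had a widest H3K27ac promoter peak of 2346 bp in hypoxia and 992 bp in normoxia. RAB22A, which acts between early and recycling endosomes, had the widest RAB promoter peak of the mark, 4396 bp in hypoxia (chromosome 20, 11229584 to 11233979) and 1388 bp in normoxia, and the table gives this promoter to a second, unnamed gene as well. At RAB5C the widest promoter peak was 771 bp in hypoxia and 861 bp in normoxia, at places that did not meet, and its promoter peaks summed to 1576 bp in hypoxia and 861 bp in normoxia. RAB5B (878 bp) and RAB21, which acts in integrin uptake (586 bp), had a promoter peak in the hypoxia list only. RAB31, which acts between the Golgi and endosomes, had no H3K27ac peak at all but an H3K4me3 promoter peak of 3209 bp in hypoxia and 3352 bp in normoxia. RAB20, an endosomal RAB reported as a target of the hypoxia-inducible factor HIF-1 in mammalian cells, had no promoter peak of either mark in either list. Its H3K27ac peaks, 184 and 653 bp in hypoxia and none in normoxia, lay 75099 and 55496 bp from its start inside another gene. Its H3K4me3 peaks lay outside the promoter window and included a pair that overlapped between conditions within its own intron, 1582 bp wide in hypoxia, 6385 bp from the start, and 1075 bp wide in normoxia, 6657 bp from the start.

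All 8 RAB genes of the recycling endosome had an H3K27ac promoter peak (65.9% of all genes), 6 of them in the hypoxia list only (background 47.0%), and counting every annotated peak put 4 of the 8 in both lists. The genes of this group together had 34 H3K27ac peaks over 27.1 kb in hypoxia and 7 over 3.51 kb in normoxia, a ratio of 7.73. The ratio was 4.48 for all RAB genes and 3.34 for the whole lists, and the difference was not tested. In the other role groups it was 1.46 (cilium), 3.30 (early endosome), 3.56 (late endosome), 4.39 (endoplasmic reticulum and Golgi), 5.54 (secretion), 5.65 (autophagy) and 6.86 (other). Each gene was given a single role, with earlier results of these data known. The 6 hypoxia-only genes were RAB35 (2205 bp), RAB4A (1952 bp), RAB14 (1548 bp), RAB11B (447 bp), RAB15 (330 bp) and RAB17 (184 bp). RAB35 controls fast recycling and actin, RAB4A marks the fast recycling route and RAB17 is an epithelial RAB of transcytosis. RAB14 acts between the Golgi and endosomes. RAB31, described in the same way, was placed with the early endosome and had no H3K27ac peak. RAB14 was not without the mark in normoxia: a peak of 1444 bp lay 3725 bp from its start, outside the window. RAB17 was the only one of the 37 without an H3K4me3 promoter peak. RAB11A, the main RAB of the slow recycling route, and RAB12, which acts in transferrin receptor degradation, were in both lists. The RAB11A promoter peaks, 1336 bp in hypoxia and 307 bp in normoxia, did not meet each other, whereas those of RAB12, 1083 bp in hypoxia and 958 bp in normoxia, overlapped by more than 50% of each.

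**Figure D2:**
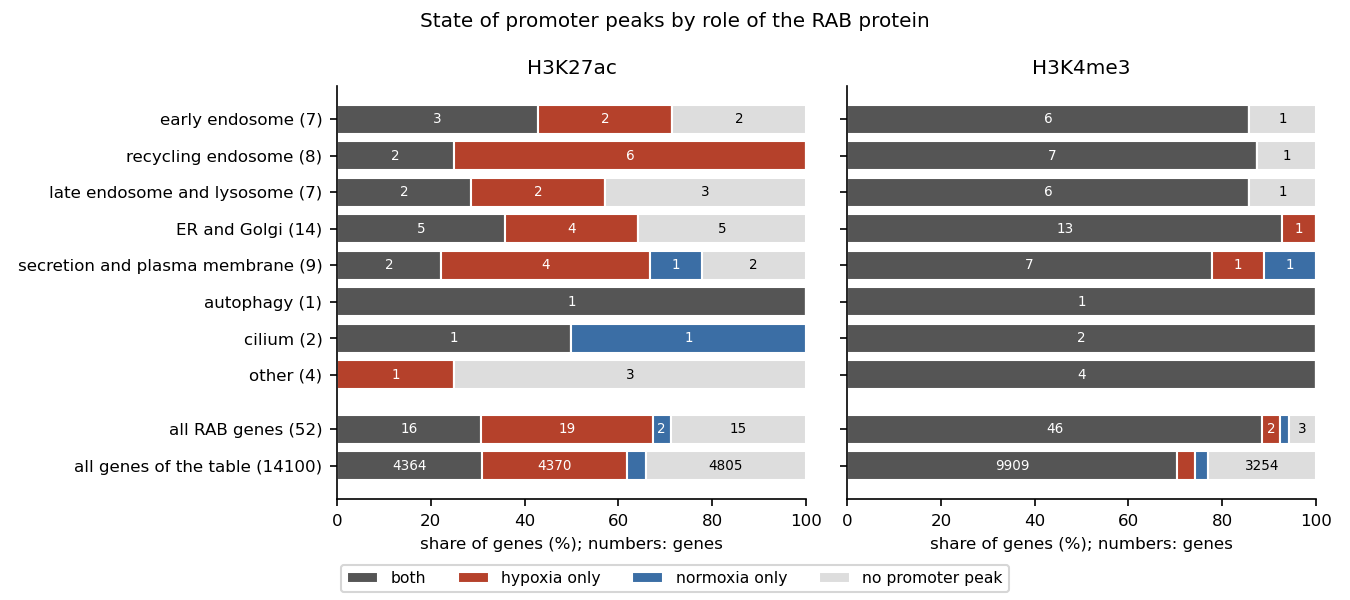
Share of genes (%) by the lists in which their promoter peak was found, for H3K27ac (left) and H3K4me3 (right), by the role of the RAB protein, for all 52 RAB genes and for all 14100 genes of the table. Numbers in the bars are genes; in the recycling group 6 of 8 H3K27ac promoters were in the hypoxia list only, while 46 of the 52 RAB promoters had H3K4me3 in both lists.

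On the late endosome and lysosome, RAB7A, which brings late endosomes to fusion with lysosomes and autophagosomes, had 5 H3K27ac peaks in each condition, and they covered 6.67 kb in hypoxia and 2.83 kb in normoxia. Its widest promoter peak measured 2257 bp in hypoxia (from 9544854) and 554 bp in normoxia (from 9551953), at different starts, and where the normoxia peak lay the hypoxia peak was 593 bp wide. RAB9A, which returns mannose 6-phosphate receptors from late endosomes to the Golgi, had a single peak in each list, 1895 bp in hypoxia and 834 bp in normoxia, and the normoxia interval lay wholly within the hypoxia one. RAB32, a RAB of lysosome-related organelles (1431 bp), and RAB7B (800 bp) were in the hypoxia list only. The other 3 genes had no H3K27ac promoter peak. Of these, RAB38, a partner of RAB32 in melanosome formation, lacked an H3K4me3 peak as well and had 3 narrow H3K27ac peaks (182 to 422 bp) in intergenic sequence in hypoxia. RAB9B and RAB29, which binds the kinase LRRK2, had H3K4me3 promoter peaks in both lists.

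The 14 RAB genes of the endoplasmic reticulum and Golgi had 44 H3K27ac peaks over 37.2 kb in hypoxia and 13 over 8.46 kb in normoxia. At 5 of the 14 the promoter had no H3K27ac peak, where 34.1% of all genes had none. Of the rest, both H3K27ac lists held the promoter at 5 and the hypoxia list alone at 4. Among all genes with an H3K27ac promoter peak those shares were 46.9% and 47.0%, so the group was divided much as all genes were. RAB1B, which acts in transport from the endoplasmic reticulum to the Golgi, had the widest promoter peak among the hypoxia-only RAB genes, 3258 bp (chromosome 3, 10585912 to 10589169), and no H3K27ac peak of any kind in normoxia. The reference names from RefSeq list RAB1A as another name of this gene. RAB2A, a RAB of the Golgi and its intermediate compartment, had a hypoxia-only promoter peak of 1694 bp and 7 more peaks in hypoxia. Its 1105 bp normoxia peak lay in its own intron, 7958 bp from the start, and met a hypoxia peak there. RAB33B, which binds the autophagy protein ATG16L1 (878 bp), and RAB43 (292 bp) completed the hypoxia-only genes. RAB6A, the RAB of retrograde Golgi traffic, had nearly the same promoter peak in each list, 1573 bp in hypoxia and 1283 bp in normoxia, with 99.2% of the normoxia interval inside the hypoxia one. RAB39B, with 2037 bp in hypoxia and 686 bp in normoxia, RAB41, with 970 bp in hypoxia and 505 bp in normoxia, and RAB30, with 831 bp in hypoxia and 516 bp in normoxia, were in both lists, as was RAB18. At RAB41 and RAB30 these widest peaks did not meet each other. Those of RAB30 lay at different starts, and at the start with the 831 bp hypoxia peak the normoxia peak was 213 bp wide.

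RAB18 (ENSGALG00000007435), the cataract gene among the members, regulates the endoplasmic reticulum, lipid droplets and autophagy. It carried both marks at its promoter in both conditions. In hypoxia a single H3K27ac peak of 2178 bp (chromosome 2, 15797033 to 15799210) lay where normoxia had 2 peaks of 978 and 663 bp, and 3 further hypoxia peaks of 607 to 742 bp lay 6513 to 16404 bp from the start. Covered length was 4.27 kb in hypoxia and 1.64 kb in normoxia, a log2 ratio of 1.38, close to the RAB median. The H3K4me3 promoter peak of RAB18 was 2893 bp wide in hypoxia and 3324 bp in normoxia.

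The 9 RAB genes of secretion and the plasma membrane had 19 H3K27ac peaks over 14.7 kb in hypoxia and 4 over 2.66 kb in normoxia. RAB8A, which carries cargo from the Golgi to the plasma membrane and cilium, had a hypoxia-only promoter peak of 685 bp and a peak of 3762 bp 3623 bp from its start, with no H3K27ac in normoxia. RAB8B had 2328 bp in hypoxia and 1423 bp in normoxia. RAB27A, which docks secretory granules and exosome-bearing endosomes, had 6 peaks in hypoxia and 0 in normoxia, the widest promoter peak being 1370 bp. That peak met no H3K4me3 peak and lay near a different start from the one with H3K4me3. At the start with H3K4me3 the RAB27A hypoxia H3K27ac peak was 614 bp wide. RAB26 (507 bp) and RAB3A, the RAB of synaptic vesicle release (477 bp), were also in the hypoxia list only. RAB10 (ENSGALG00000016535), which acts in insertion of glucose transporters into the plasma membrane, went the other way: 2 peaks of 269 and 221 bp covered 0.49 kb in hypoxia, and 2 peaks of 679 and 381 bp covered 1.06 kb in normoxia. None of these RAB10 peaks met a peak of the other condition, although the H3K4me3 promoter peak was alike, 3366 bp in hypoxia and 3171 bp in normoxia. RAB37, a secretory RAB of mast cells in mouse, was the sole member with promoter peaks of both marks in the normoxia list only, 177 bp of H3K27ac and 564 bp of H3K4me3. RAB3B and RAB3C had no H3K27ac promoter peak.

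The remaining members belong to no single route. RAB24, which acts in autophagy, had H3K27ac promoter peaks of 1737 bp in hypoxia and 833 bp in normoxia, at a promoter that the table also gives to PRELID1, and 4 further intergenic peaks in hypoxia. RAB23, a regulator of hedgehog signalling at the cilium, had its 706 bp promoter peak in the normoxia list only, and a hypoxia peak of 537 bp lay in an exon 5619 bp from its start. RAB28, a ciliary RAB of photoreceptors, had a narrower promoter peak in hypoxia (597 bp) than in normoxia (1399 bp). RAB40B and RAB40C are SOCS-box RAB proteins that recruit ubiquitin ligases. RAB40C had no H3K27ac promoter peak by the window used, yet it held the widest H3K27ac peak of any member, 4788 bp in hypoxia (chromosome 14, 13939057 to 13943844), 4242 bp from its start, over 2 normoxia peaks of 806 and 197 bp. RAB10L and RAB18L had no H3K27ac peak and an H3K4me3 promoter peak in both lists.

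Summed over all peaks annotated to a gene, H3K27ac covered more sequence in hypoxia at 19 of the 22 RAB genes that had peaks in both lists (86.4%), where the background was 89.7% of all such genes. The median log2 ratio of hypoxia over normoxia was 1.36 at these RAB genes and 1.53 at all 6959 such genes. Another 22 RAB genes were covered in hypoxia alone, RAB37 was covered in normoxia alone, and 7 had no H3K27ac peak. Over all genes, 5319 were covered in hypoxia alone and 414 in normoxia alone. By the state rule applied to every annotated peak, 48.9% of RAB genes with a peak were hypoxia-only, against 41.0% of all such genes. The normoxia-only shares were 2.22% of RAB genes and 3.03% of all genes, and neither difference was tested. RAB35 had the largest ratio, with 5.76 kb in hypoxia, 0.185 kb in normoxia and a log2 ratio of 4.96, but its single normoxia peak lay inside another gene, at -13942 bp from the RAB35 start. RAB11A followed with 7.2 kb in hypoxia and 0.745 kb in normoxia (log2 ratio 3.27), then RAB40C (2.50), RAB24 (2.50) and RAB2A (2.47). Coverage was lower in hypoxia at RAB10 (log2 ratio -1.11), RAB23 (-0.39) and RAB39A (-0.36), and the smallest ratios above 0 were those of RAB5C (0.56) and RAB28 (0.78). RAB39A rests on 1 peak of 176 bp in hypoxia and 1 of 226 bp in normoxia. Counting promoter peaks alone, 14 of 16 RAB genes were wider in hypoxia (87.5%, background 78.8%), with a median log2 ratio of 1.12 against 1.04 over all genes.

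**Figure D3:**
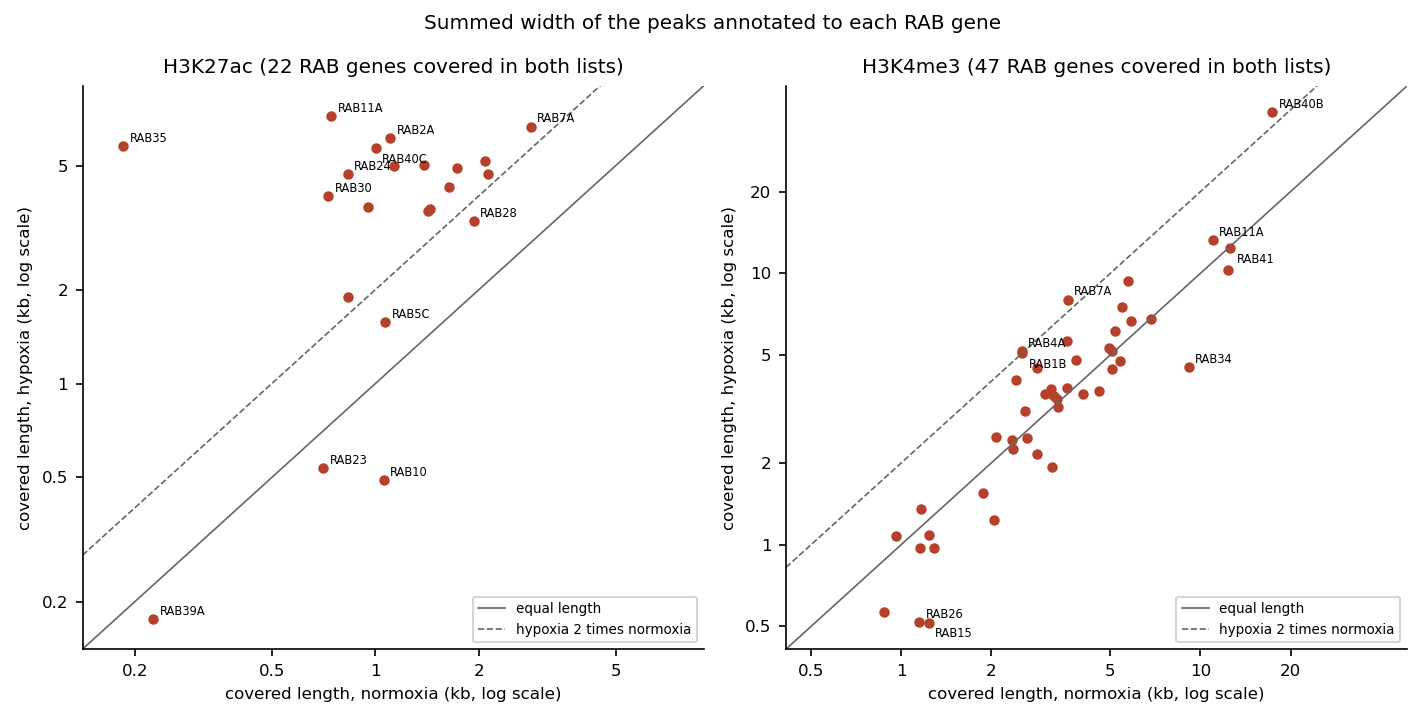
Summed width of annotated peaks (kb, log scales) in hypoxia (vertical) against normoxia (horizontal) for RAB genes with peaks in both lists, 22 for H3K27ac (left) and 47 for H3K4me3 (right). The solid line is equal length and the dashed line 2 times as much in hypoxia; H3K27ac points lie above the solid line except RAB10, RAB23 and RAB39A, while H3K4me3 points lie on either side of it.

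H3K4me3 covered about the same length at RAB genes in either condition. Of 47 RAB genes with peaks in both lists, 26 had more covered length in hypoxia (55.3%, background 60.1%), and the median log2 ratio was 0.05, against 0.12 over all genes. At promoters alone 25 of 46 were wider in hypoxia (54.3%, background 61.4%). Among the 46 promoters in both lists, the peaks of the 2 conditions met at all 46 and overlapped by at least 50% of each at 41. For H3K27ac, of 16 promoters in both lists the peaks met at 13 and reached 50% of each at 3, RAB6A, RAB7A and RAB12. How often such peaks met was not computed over all genes, so the counts that met are no result about RAB genes. Among genes with an H3K4me3 promoter peak, the 50% overlap was found at 83.7% of RAB genes and 79.2% of all genes. The shares for H3K27ac were 8.11% of RAB genes and 12.0% of all genes. The promoters with H3K4me3 in 1 list were RAB3B (1005 bp) and RAB36 (811 bp) in hypoxia and RAB37 (564 bp) in normoxia. RAB17, RAB20 and RAB38 had none.

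The widest H3K4me3 peak at a RAB gene was the promoter peak of RAB40B in hypoxia, 39185 bp (chromosome 18, 3345384 to 3384568), the third widest of the 24987 peaks of that list. In normoxia the RAB40B promoter peak measured 17359 bp (3365344 to 3382702) and ranked 42 of 22288. The difference was mostly one of joining: 3 normoxia peaks covered 95.7% of the hypoxia interval, and the table gives the hypoxia peak also to FN3K and FN3KRP, which encode enzymes of protein deglycation. RAB40B therefore had the largest H3K4me3 ratio of covered length (log2 1.17) with nearly the same ground covered in normoxia. RAB11A was similar, with a promoter peak of 10032 bp in hypoxia and 5402 bp in normoxia, where 2 normoxia peaks covered 89.6% of the hypoxia interval. RAB34, a RAB of the Golgi and cilium, was split the other way: 4521 bp in hypoxia and 9161 bp in normoxia, with 2 hypoxia peaks over 89.3% of the normoxia interval. The table gives its hypoxia peak also to RPL23A, and its normoxia peak to RPL23A, NEK8 and TLCD1. RAB41 had a broad peak that hardly differed, 12363 bp in hypoxia and 12589 bp in normoxia. RAB1B and RAB2A had a wider peak in hypoxia without such joining. The single normoxia peak covered 48.8% of the 5090 bp hypoxia peak of RAB1B and 47.9% of the 6143 bp one of RAB2A. At RAB7A (log2 ratio 1.15) and RAB4A (1.04) the covered length was 8.00 and 5.18 kb in hypoxia, against 3.61 and 2.53 kb in normoxia. The RAB4A promoter peak itself was alike, 1794 bp in hypoxia and 1737 bp in normoxia, and the other RAB4A peaks lay outside the promoter window.

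**Figure D4:**
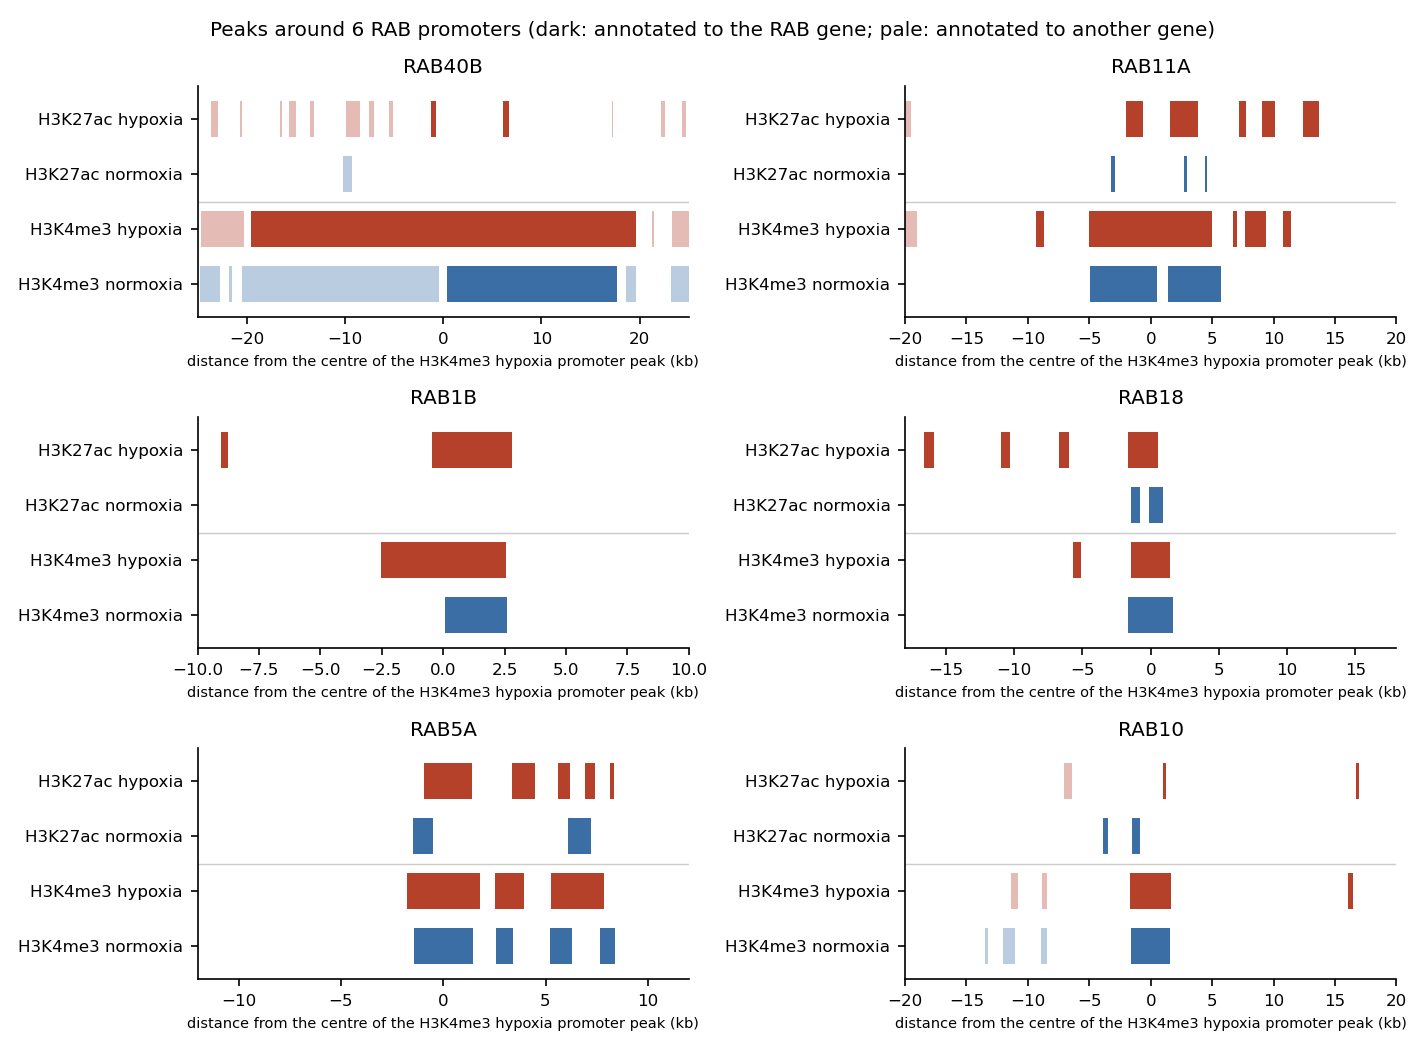
Peaks of the 4 lists around 6 RAB promoters, in genome order, by distance (kb) from the centre of the H3K4me3 hypoxia promoter peak; red bars are hypoxia, blue bars normoxia, dark bars are annotated to the RAB gene and pale bars to another gene. At RAB40B 1 wide hypoxia H3K4me3 peak spans 3 normoxia peaks, at RAB1B H3K27ac is listed in hypoxia only, and at RAB10 the H3K27ac peaks of the conditions lie apart.

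The width of H3K4me3 varied with the H3K27ac state of the promoter. RAB promoters with H3K27ac in both lists had a median widest H3K4me3 promoter peak of 3585 bp in the hypoxia list (16 genes), those with H3K27ac in the hypoxia list only had 2846 bp (18 genes) and those with none had 1180 bp (13 genes). The same order held over all genes, with 2983, 2171.5 and 1407 bp, and in the normoxia list, where the RAB medians were 3257.5, 2616 and 2041 bp. The median log2 ratio of H3K4me3 promoter length was 0.09 at RAB genes with hypoxia-only H3K27ac and 0.06 at those with H3K27ac in both lists. Over all genes the 2 medians were nearly equal, 0.1399 with hypoxia-only H3K27ac and 0.1427 with H3K27ac in both lists. At 13 of the 49 RAB genes with an H3K4me3 promoter peak there was no H3K27ac promoter peak (26.5%, 16.2 to 40.3%), against 22.7% of all such genes.

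RAB genes that share a number and differ by a letter are close paralogs. There were 9 such sets with 20 genes and 13 pairs, and 2 pairs had the same H3K27ac state (15.4%), RAB5A with RAB5C and RAB3B with RAB3C, where 29.9% of all 1326 pairs of RAB genes did. In H3K4me3, 11 of the 13 pairs had the same state (84.6%), against 78.4% of all pairs. Neither difference was tested. RAB5A, RAB7A, RAB8B, RAB9A, RAB11A and RAB39B had H3K27ac in both lists, while RAB5B, RAB7B, RAB8A and RAB11B had it in the hypoxia list only and RAB9B and RAB39A had none at the promoter. RAB33B and RAB40B had it in the hypoxia list only, and RAB33A and RAB40C had none at the promoter, although RAB40C had H3K27ac peaks farther from its start in both lists. This grouping was made after the values were seen.

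A larger share of RAB peaks than of all peaks lay near a transcription start, a difference that was not tested. The sides were classed by unlike rules. RAB peaks took the line with the smallest distance to a start, and the whole lists took the first line of each interval. This can favour RAB peaks near a start, and its size was not tested. Of the hypoxia H3K27ac peaks at RAB genes 26.7% (20.2 to 34.3%) were within 1 kb of a start, against 17.3% of the whole list, and 14.0% were distal intergenic, against 24.4%. In the normoxia H3K27ac list 46.3% (32.1 to 61.3%) of RAB peaks were within 1 kb, against 26.6%, and in the H3K4me3 lists 53.8% in hypoxia and 53.9% in normoxia, against 37.6% and 41.0%. RAB H3K27ac peaks overlapped a peak of the other condition about as often as other peaks, 14.7% against 19.3% for the hypoxia list and 56.1% against 60.7% for the normoxia list. They overlapped H3K4me3 in 52.0% of cases in hypoxia (44.1 to 59.8%), against 39.2% of the whole list, and in 70.7% in normoxia, against 59.9%. Of the 128 hypoxia H3K27ac peaks that met no normoxia peak, 38 lay in introns (29.7%, against 32.6% of all such peaks of the list) and 25 within 1 kb of a start (19.5%, against 13.2%). RAB28 shows how far annotation by the nearest start can reach: 7 of its 9 hypoxia H3K27ac peaks were intergenic and 82904 to 281546 bp away. Of 54 hypoxia H3K27ac peaks in introns and exons, 9 lay in a gene other than the RAB gene they were assigned to.

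**Figure D5:**
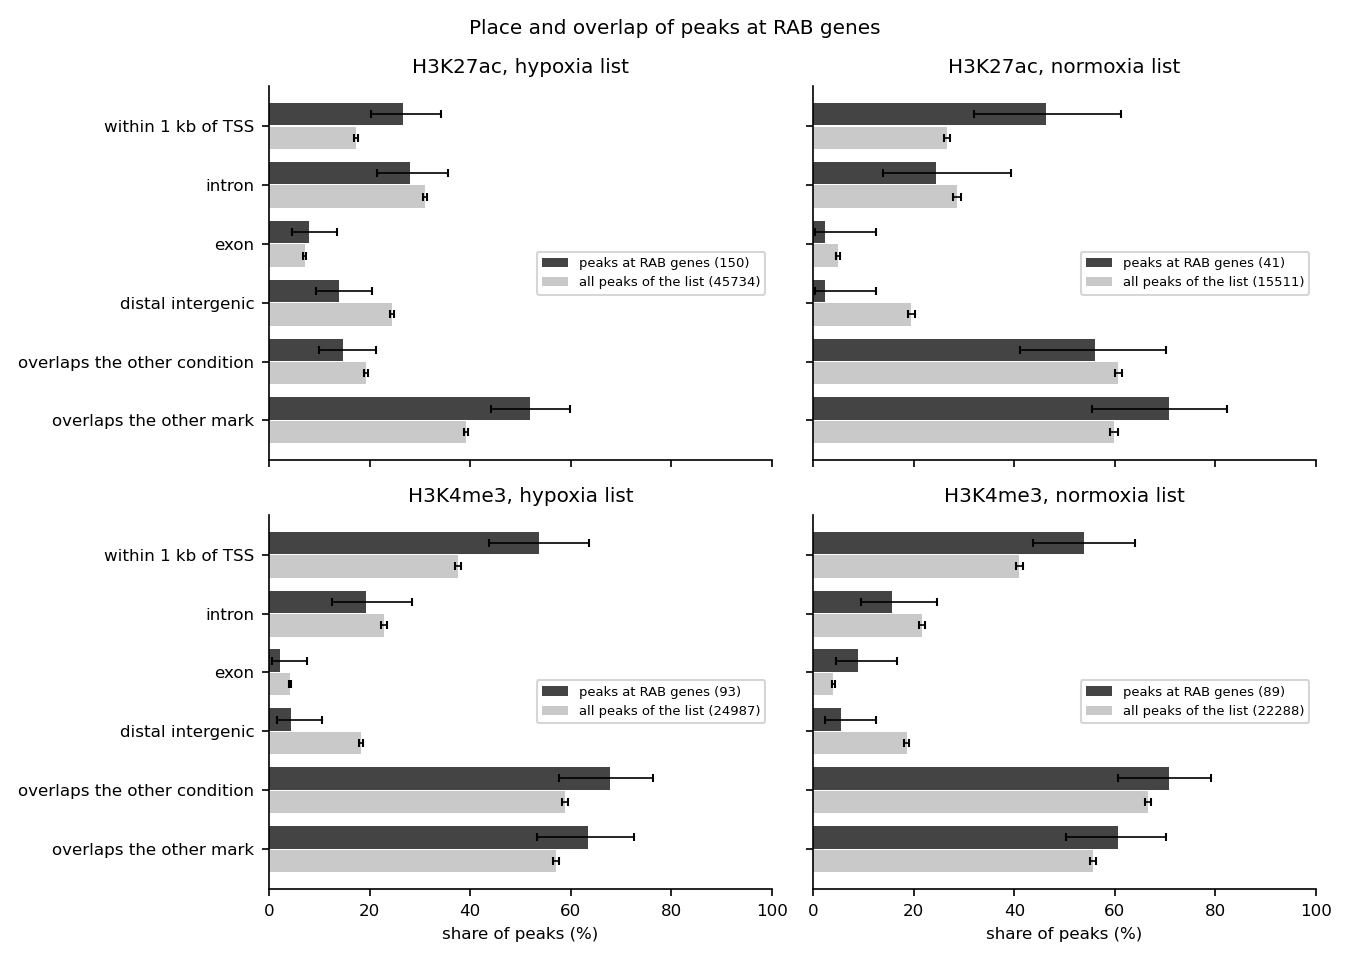
Share (%) of peaks at RAB genes (dark) and of all peaks of the list (light) by place and by overlap with the other condition or the other mark, for the 4 peak lists; bars carry Wilson 95% intervals, which cover the counting of peaks only. The RAB bars exceed the whole list within 1 kb of a start and fall below it for distal intergenic peaks in all 4 lists. The place of a repeated peak was taken from its line nearest a start for RAB genes and from its first line for the whole list.

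The regulators and effectors of RAB proteins were described from a list of 111 genes written from general knowledge, of which 95 are named in the table. Both H3K27ac lists held the promoter of 40 of them, the hypoxia list alone that of 31 and the normoxia list alone that of 1, and 23 had no such peak, so that 43.1% of the 72 genes with a peak were hypoxia-only, near the background of 47.0%. By class, the hypoxia-only promoters were 11 of 25 among GTPase-activating proteins, 8 of 23 among activators, 12 of 21 among effectors and 0 of 3 among prenylation and recycling factors. Promoters with H3K4me3 in both lists numbered 79 of 86 (91.9%), near the background of 91.4%. The regulators of RAB18 had both marks in both conditions. RAB3GAP1 and RAB3GAP2, subunits of the complex that activates RAB18, had H3K27ac promoter peaks of 2130 and 1672 bp in hypoxia, against 985 and 479 bp in normoxia. TBC1D20, a GTPase-activating protein for RAB1 and a partner in the same disease, had 820 bp in hypoxia and 171 bp in normoxia. CHM, which presents RAB proteins for prenylation, was covered by 2.96 kb of H3K27ac in hypoxia and 0.598 kb in normoxia. Other cataract genes lie among the effectors. FYCO1, which links RAB7 to kinesin and is mutated in human congenital cataract, had a widest H3K27ac promoter peak of 660 bp in hypoxia and 922 bp in normoxia, while all its H3K27ac peaks covered 6.15 kb in hypoxia and 2.77 kb in normoxia. OCRL, the phosphatase lost in Lowe syndrome, had a 1253 bp peak in the hypoxia list only. Apart from these cataract genes, the effector VPS39, a subunit of the HOPS tethering complex that RAB7 recruits, had a hypoxia-only H3K27ac promoter peak of 3252 bp. VPS41, also on the effector list, was in both lists, with widest promoter peaks of 1331 bp in hypoxia and 222 bp in normoxia.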

How the data were processed

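The libraries cover H3K27ac, H3K4me3 and IgG, 16 in all. The deposited table gives, per the file headers, the start, end and distance to a transcription start in bp, the gene and the class of each peak of 4 lists (mark by condition), and no signal. Build galGal6 and the tools STAR, MACS2, ChIPseeker and DESeq2 are named, per the submitters' processing notes, without roles or versions. Thresholds, controls and whether libraries were pooled are not given in the sources used here, and neither is depth. Of 124414 lines, 15894 repeated an interval, which left 108520 distinct peaks for list totals and overlaps. For gene values, 1 line was kept per interval and gene, that with the smallest distance to a transcription start. Positions are printed 1-based. Python 3.11.15 with pandas 2.3.3, numpy 2.4.6 and scipy 1.17.1 computed promoter states (within 3000 bp; overlap of at least 1 bp), covered lengths and Wilson intervals for RAB genes beside all genes, without p-values. The state rule was tested on simulated data and overlaps were checked against bedtools 2.31.1. Members, roles, regulators and tests were chosen with earlier results of these data known.

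Named by rule were members present in 1 list only (up to the 12 widest), those without promoter peaks, the 10 widest promoter peaks per mark, the 5 highest and 5 lowest H3K27ac ratios, the 3 with most peaks per list and a set of well-known members. Further members, regulators, single peaks and the paralog grouping were named after their values were seen. Planned sequence descriptions were not made, since no sequence was used here. Alternatives covered overlap, promoter window, peak width, list size and all annotated peaks.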

Additional observations from a re-analysis of the deposited data

How the results depend on the processing

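The promoter states of RAB genes were recomputed under other overlap, window, width and list-size settings, with every annotated peak, and under one setting chosen after seeing the data, with peaks annotated to a single gene. Regulators and role groups were recomputed for overlap, window and every annotated peak, and covered lengths and peak numbers under 2 settings each. Paralog pairs and peak places were not recomputed. When peaks had to share at least 50% of their widths, H3K27ac promoters in both lists numbered 3 among RAB genes (8.11%, all genes 12.0%). A further 13 RAB genes had peaks of each list that did not meet this (35.1%, all genes 33.1%). Under the same setting both H3K27ac lists held the promoter of 11 regulators, and 5 regulators had hypoxia-only H3K4me3. By role group the H3K27ac number was 1 each for the endoplasmic reticulum and Golgi, late endosome and recycling endosome. It was 0 for the early endosome and for secretion. After trimming the hypoxia peaks to the widest ones, as many as the normoxia list holds, 10 RAB genes were hypoxia-only for H3K27ac (35.7%, all genes 27.3%) and 5 normoxia-only (17.9%, all genes 24.8%). With a promoter window of 1000 bp, 1 recycling and 1 secretion gene had H3K27ac in both lists, 2 regulators were normoxia-only for it, and H3K4me3 was hypoxia-only at 1 RAB gene and normoxia-only at 0. Counting every annotated peak left 1 RAB gene normoxia-only for H3K27ac and put 4 recycling genes in both lists, where 56.0% of all genes with such a peak were in both. With promoter peaks alone, the median log2 H3K27ac covered length ratio was 1.12. With peaks of at least 500 bp, the mean number of H3K27ac peaks per RAB gene was 1.65 in hypoxia and 0.50 in normoxia, against 2.88 and 0.788 with all widths. With all widths, the means over all genes were 3.27 and 1.11. The causes were not tested. The other 76 recomputed values stayed within 1.5 times the reported count or 0.1 of the reported log2 ratio. No paired analysis was possible because the lists carry no replicate numbers, and no library could be left out.

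Unknown depth and peak thresholds limit all H3K27ac contrasts. Wilson intervals say nothing of the spread between lenses.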

Other observations

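Some RAB promoters carry more than one gene, which bears on what a peak can be credited to. Of the 52 members, 9 had at least 1 peak that the table also gives to another gene. In this way 9 of the 93 hypoxia H3K4me3 peaks at RAB genes were shared, against 7 of 89 in the normoxia list. The share of shared peaks over the whole lists was not computed. With shared peaks left out, 42 of the 49 RAB genes with an H3K4me3 promoter peak still had one. Over all genes 9032 of 10846 did, so by this measure RAB genes were near all genes. Whether sharing is a trait of RAB genes was not tested. The partners included TPM4, a tropomyosin gene, at RAB8A and DUSP3, a phosphatase gene, at RAB18L. RAB27A shared a peak with PIGB, a gene of glycolipid anchor synthesis, and RAB31 with PPP4R1, a phosphatase subunit gene. H3K27ac peaks were shared at RAB22A and RAB24 in either condition.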
